A study of Homo sapiens with 6 samples.

Results

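The genes described here encode the machinery that brings proteins into mitochondria: the TOMM and TIMM translocase subunits, the sorting and disulfide relay components, the import motor and the processing peptidases. They were taken from a list of 34 gene symbols, each matched to its Ensembl identifier, out of 20036 genes in the deposited expression table. The libraries came from MV411, an established cell line from a human monocytic acute myeloid leukaemia, with the genotype given as WT in every library. A group of 3 libraries from cells given corilagin, a plant ellagitannin, was set against 3 libraries from cells given DMSO, both at 48 hours. The dose of corilagin and the question of whether replicates were separate cultures are not given in the sources used here, so p-values rest on the spread among these 6 libraries alone, and that spread may be technical. All values are FPKM, fragments scaled by gene length and by the library's total, from poly(A) RNA.

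Most mitochondrial proteins are made in the cytosol and pass through the translocase of the outer membrane, TOM. From there, barrel proteins go to the sorting and assembly machinery, SAM. Small cysteine-rich proteins are folded in the intermembrane space by a disulfide relay, and carrier proteins are led by small TIM chaperones to the TIM22 translocase. Proteins with a cleavable presequence pass TIM23 and a motor, and matrix peptidases trim them. Leukaemia cells of myeloid type have been described as strongly reliant on mitochondrial respiration.

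Promoter windows, running from 250 bases before to 50 bases after the transcription start in RefSeq (GRCh38.p14), were found for 31 of the 34 genes, and TOMM5, TIMM8B and GRPEL1 had no entry. Parts of 4 windows are shown: those of MIPEP, CHCHD4 and TIMM13, the members whose difference passed the test under every setting tried, and that of TOMM40, the outer membrane channel. They were chosen after the values were seen. Each is 60 bases long, written 5′ to 3′ along the gene, and the capitals mark a match to the binding word of a transcription factor family known from mitochondrial or growth genes.
MIPEP, chr13:23889401-23889460, minus strand, E-box: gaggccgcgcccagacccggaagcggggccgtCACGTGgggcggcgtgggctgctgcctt
CHCHD4, chr3:14124925-14124984, minus strand, NRF1 word on the opposite strand: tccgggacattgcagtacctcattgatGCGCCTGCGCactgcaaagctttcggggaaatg
TOMM40, chr19:44891005-44891064, plus strand, NRF1 word: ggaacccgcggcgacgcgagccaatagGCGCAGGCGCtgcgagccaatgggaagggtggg
TIMM13, chr19:2427587-2427646, minus strand, ETS word on the opposite strand: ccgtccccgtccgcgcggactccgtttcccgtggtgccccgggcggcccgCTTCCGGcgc

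These 4 matches begin 28, 87, 222 and 10 bases before the start, in the order shown. An ETS word also stands in the MIPEP stretch, in lower case, and does not overlap the E-box. On either strand, the ETS word CCGGAAG stood in 14 of the 31 windows, against 10.7% of all 27305 promoter windows and 21.9% of the 8105 windows of tested genes. The NRF1 word (GCGCA, any base, then GCGC) stood in 8 of 31, against 6.28% of all and 13.1% of tested-gene windows. The E-box CACGTG, bound by MYC and MAX, stood in 4 of 31, against 7.43% and 10.8%. The YY1 word AAGATGGCG was found in 2 (1.85% and 4.54%), PMPCA and TIMM50. The ATF4 and CEBP word TGATGNAA was also found in 2 (3.67% and 1.59%), TIMM22 and PMPCB. Among the 16 windows of members that were lower after corilagin, the ETS word stood in 7, the NRF1 word in 4 and the E-box in 3. Among the 14 windows of tested members that did not pass, the numbers were 6, 4 and 1. These matches describe letters, not bound sites.

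The library totals behind the FPKM, recovered from the steps of the values, were 17776956 to 21640689 fragments. Fragments recovered for the listed genes came to 100.16% to 100.21% of these totals. A tested member had between 118 and 9931 fragments in a library. All 10 monocytic leukaemia markers reached 1 FPKM in some library, with sums of 531 to 533 FPKM after corilagin and 464 to 514 in DMSO. The markers did not all lie the same way. FLT3, the most abundant, averaged 311 FPKM after corilagin and 217 in DMSO. PTPRC (13.2 and 7.52), ITGAM (2.84 and 1.39) and MEIS1 (6.25 and 4.64) also had higher means after corilagin. Lower means were seen for CD4 (105 and 131), LYZ (42.8 and 68.5), CSF1R (13.6 and 17.7) and MPO (0.471 and 1.58). CD33 (22.5 and 23.7) and HOXA9 (14.2 and 14.3) differed little. The T cell, erythroid, epithelial and fibroblast marker lists had no gene at that level. The third DMSO library stood apart. The chi-square of its recovered counts per gene was 89.2 and 71.0 against the other two DMSO libraries, which gave 4.56 against each other. When genes were cut into 8 bins of transcript GC content, the lowest bin lay 0.23 above the gene means (log2) in this library, close to the corilagin libraries (0.21, 0.23 and 0.27), and -0.51 and -0.44 in DMSO replicates 1 and 2. In the highest bin it lay at -0.09, beside -0.09, -0.10 and -0.15 after corilagin and 0.22 and 0.21 in the other DMSO libraries. The main results below are therefore also given without this library, against it alone, or with each library's GC trend removed.

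The import genes that passed the test were lower after corilagin and MIPEP, TIMM50, TIMM13 and TOMM40 had the lowest ratios to DMSO. Of 34 members, 32 had a mean of at least 1 FPKM and were tested with limma on log2(FPKM + 1) over all 9868 such genes. At a Benjamini-Hochberg adjusted p under 0.05, 18 members (56.2%) fell, 0 rose and 14 did not pass. Over all tested genes, 25.4% passed, 13.5% lower and 11.9% higher. At an unadjusted p under 0.05, 1 member was higher and 20 were lower. The share of all genes at that level was not counted, so these counts cannot be called particular to the members. On the recovered fragments, limma-voom called 0 members higher and 16 lower, where 1237 of 9868 genes were higher and 1321 lower. The median log2 difference of the tested members was -0.29, against 0.03 for all tested genes. Of the 32 tested members, 25 were below 0, beside 4569 of the 9868 tested genes. Every one of the 18 fallen members had all 3 corilagin libraries below all 3 DMSO libraries, with ratios of means from 0.451 (MIPEP) to 0.822 (GRPEL1). Counting only whether the groups overlapped, 21 members lay lower without overlap and 1 higher, where 23.3% of all tested genes lay lower and 25.0% higher (48.3% in either direction). The FPKM of all 34 members summed to 690 ± 4.04 (SD, n = 3) after corilagin and 845 ± 14.2 (SD, n = 3) in DMSO. Over the whole table, FPKM summed to 233932, 236861 and 233342 in corilagin replicates 1 to 3. In DMSO replicates 1 to 3 this total was 266660, 260759 and 239068. The total was thus lower after corilagin as well, and the members' sum was not adjusted for it. In bulk RNA, fewer cells of a type and less RNA per cell cannot be told apart.

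With GC trends removed, 22 of 32 members (68.8%) were lower and 0 higher, where 22.9% of all genes were lower and 21.0% higher (43.9% either way), and 17 of the 18 fallen members were among the 22. The one lost was MTX1, and those gained were TOMM70, TIMM9, TIMM17A, TIMM21 and DNAJC19. Members with a transcript GC content under 50% fell in 7 of 17 cases as deposited, beside 4.46% of all genes under 50%, and in 12 of 17 with GC trends removed, beside 20.5%. Members at or above 50% fell in 11 of 15 cases as deposited, beside 22.5% of all genes there, and in 10 of 15 with GC trends removed, beside 25.3%. Without DMSO replicate 3, 21 members were lower and 6 higher (MTX2, TOMM20, TOMM70, TIMM17A, GRPEL2 and PMPCB), where 36.5% of all genes were lower and 40.8% higher (77.3% either way). Against DMSO replicate 3 alone, whose spread was assumed to be that of the corilagin group, 21 were lower and 0 higher, 15 of them shared with the 18, where 18.6% of all genes were lower and 19.4% higher (38.0% either way). The third DMSO library lay below both others yet above every corilagin library for 16 of the 32 members. This position was not counted over all tested genes, so it cannot be called particular to the members. Rescaling FPKM to equal sums moved the median log2 difference of all genes to 0.14 and the calls over all genes from 1171 higher and 1331 lower to 1620 higher and 1059 lower, and 13 members were then lower, with a median of -0.19.

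The calls depended on which library was left out. Leaving out DMSO replicate 1 left 8 members lower, and leaving out DMSO replicate 2 left 6, while the genes called lower in the whole table went from 1331 to 483 and 298. Leaving out corilagin replicate 1, 2 or 3 left 3, 4 and 3 members, with 190, 176 and 203 genes lower in the whole table. MIPEP, CHCHD4 and TIMM13 passed in each of these fits, with adjusted p up to 0.0204, 0.0423 and 0.0380. TOMM34 was lost without corilagin replicate 1 or 3 (adjusted p up to 0.0562). TOMM40 and TIMM50 were lost without any one corilagin library (up to 0.0590 and 0.0593). TIMM10 and PMPCA were also lost without DMSO replicate 2 (up to 0.0647 and 0.0659). The other 10 fallen members were lost whichever library other than DMSO replicate 3 was left out, with adjusted p up to 0.0942 (TOMM22) to 0.180 (TIMM8A).

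**Figure D1:**
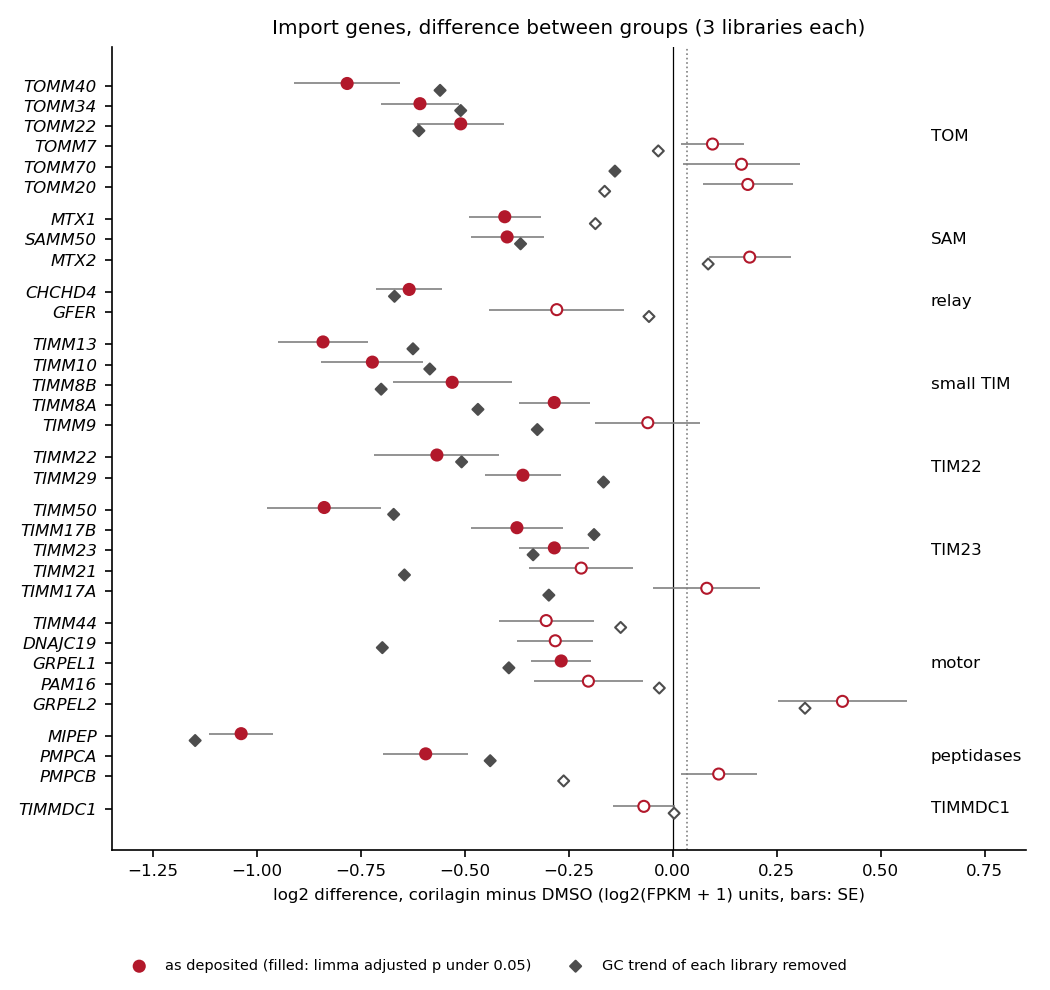
Difference of corilagin minus DMSO for the 32 tested import genes in log2(FPKM + 1) units, ordered by machine; circles are the deposited values with SE (3 libraries per group, filled at a limma adjusted p under 0.05), diamonds the fit with GC trends removed, and the dotted line the median of all tested genes (0.03). The filled circles run from -1.04 for MIPEP to -0.27 for GRPEL1, and GRPEL2 lies highest at 0.41, unfilled.

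The counts of each machine below stand beside 13.5% of all tested genes lower as deposited and 22.9% lower with GC trends removed. In the TOM complex, 3 of 6 tested members fell (4 with GC trends removed): the channel, its central receptor and a cytosolic partner. TOMM40 (chr19:44890569-44903689, plus strand) encodes the barrel that forms the entry pore, and its promoter is shown above. It stood at 62.0, 60.4 and 45.1 FPKM in DMSO replicates 1 to 3 and at 32.6, 31.7 and 30.9 FPKM after corilagin. The groups did not overlap, and the third DMSO library lay between them. The mean was 31.7 ± 0.807 (SD, n = 3) against 55.8 ± 9.31 (SD, n = 3), a log2 difference of -0.78 (SE 0.127, limma adjusted p = 0.00936), or -0.56 with GC trends removed and -0.50 against the third DMSO library alone. TOMM22 (chr22:38681948-38685421, plus strand), the receptor that organises the complex, read 50.6, 50.1 and 40.6 FPKM in DMSO and 32.9, 33.97 and 31.0 FPKM after corilagin. Here too the lowest DMSO library was above every corilagin library, and the log2 difference was -0.51 (SE 0.105, limma adjusted p = 0.0180). TOMM34 (chr20:44942130-44960486, minus strand), which holds precursors for the outer membrane together with cytosolic chaperones, read 43.0, 42.5 and 36.4 FPKM in DMSO and 26.1, 27.6 and 25.04 FPKM after corilagin. Its log2 difference was -0.61 (SE 0.0929, limma adjusted p = 0.00801).

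The presequence receptor TOMM20 was the most abundant member, with a mean of 124 FPKM over the 6 libraries. It read 104, 111 and 136 FPKM in DMSO and 133, 129 and 133 FPKM after corilagin. Only the third DMSO library reached the corilagin level, and it exceeded it. The log2 difference was 0.18 (adjusted p = 0.219), and it was -0.16 with GC trends removed, so its direction depended on that choice. TOMM70, the receptor for carrier precursors, had a like pattern: 28.4 ± 0.483 FPKM (SD, n = 3) after corilagin against 25.6 ± 5.51 (SD, n = 3), with a difference of 0.17 as deposited (adjusted p = 0.375) and -0.14 with GC trends removed (adjusted p = 0.0310). TOMM7, a small subunit, differed by 0.10 (adjusted p = 0.335), or -0.04 with GC trends removed. TOMM5, another small subunit, lay below the filter, at 0.4998 to 0.610 FPKM after corilagin and 0.649 to 1.08 in DMSO. TOMM6 was listed at 0 in all 6 libraries, and another annotated gene on the same strand covers all 637 of its exon bases.

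In the sorting and assembly group, 2 of 3 members fell (1 with GC trends removed). SAMM50 (chr22:43955421-44010531, plus strand), the barrel of the SAM complex, read 11.05, 10.96 and 9.58 FPKM in DMSO and 8.05, 7.61 and 7.54 FPKM after corilagin, a log2 difference of -0.40 (limma adjusted p = 0.0218). MTX1 (chr1:155208699-155213824, plus strand), a metaxin that caps SAM on the cytosolic side, read 6.71, 7.44 and 6.50 FPKM in DMSO and 5.14, 4.67 and 5.04 FPKM after corilagin. Its groups also lay apart, with a log2 difference of -0.40 (limma adjusted p = 0.0203), but -0.19 with GC trends removed (adjusted p = 0.0852). MTX2, its partner, read 19.7 ± 1.04 FPKM (SD, n = 3) after corilagin and 17.3 ± 1.89 (SD, n = 3) in DMSO and did not pass (log2 difference 0.18, adjusted p = 0.178).

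The disulfide relay is made up of an import receptor with oxidase activity and the enzyme that reoxidises it. The first, CHCHD4 (chr3:14112077-14124870, minus strand), read 16.5, 14.7 and 15.6 FPKM in DMSO and 9.52, 9.61 and 9.90 FPKM after corilagin. All 3 DMSO libraries lay well above all corilagin libraries, DMSO replicate 3 included. The ratio of means was 0.621, and the log2 difference of -0.63 (SE 0.0800, limma adjusted p = 0.00448) was -0.67 with GC trends removed and -0.64 against the third DMSO library alone. GFER, the sulfhydryl oxidase, read 4.39, 3.86 and 2.46 FPKM in DMSO and 2.60, 2.65 and 2.85 FPKM after corilagin. The third DMSO library lay below the corilagin libraries, and the difference did not pass (-0.28, adjusted p = 0.207).

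Of the 5 small TIM chaperones, which shield hydrophobic precursors in the intermembrane space, 4 fell, and all 5 were lower with GC trends removed. TIMM13 (chr19:2425624-2427894, minus strand), which works in a complex with TIMM8A, read 51.9, 54.8 and 42.3 FPKM in DMSO and 26.7, 27.8 and 26.8 FPKM after corilagin. The lowest DMSO value was still far above the highest corilagin value. The ratio of means was 0.546 and the log2 difference -0.84 (SE 0.107, limma adjusted p = 0.00457), or -0.63 with GC trends removed and -0.62 against the third DMSO library alone. Exons of neighbouring genes cover 257 of its 1973 exon bases on the same strand and 313 on the other.

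TIMM10 (chr11:57528463-57530803, minus strand), which forms a hexamer with TIMM9, was the most abundant small TIM. It read 79.6, 77.0 and 59.9 FPKM in DMSO and 44.0, 45.3 and 39.9 FPKM after corilagin, a log2 difference of -0.72 (SE 0.122, limma adjusted p = 0.0108). TIMM9 itself read 9.82 ± 0.757 FPKM (SD, n = 3) after corilagin and 10.4 ± 1.78 (SD, n = 3) in DMSO. It did not pass as deposited (-0.06, adjusted p = 0.720) and did with GC trends removed (-0.33, adjusted p = 0.00302). TIMM8B (chr11:112084800-112086798, minus strand) read 28.6, 29.02 and 23.1 FPKM in DMSO and 18.5, 21.4 and 15.3 FPKM after corilagin, with a log2 difference of -0.53 (limma adjusted p = 0.0367). TIMM8A (chrX:101345659-101349196, minus strand), the gene mutated in the Mohr-Tranebjaerg deafness-dystonia syndrome, read 6.57, 6.27 and 5.90 FPKM in DMSO and 4.93, 4.63 and 5.28 FPKM after corilagin. Its difference of -0.29 (limma adjusted p = 0.0490) was close to the threshold. Antisense genes cover 377 of the 1166 exon bases of TIMM8B, and without strand their reads cannot be told apart.

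**Figure D2:**
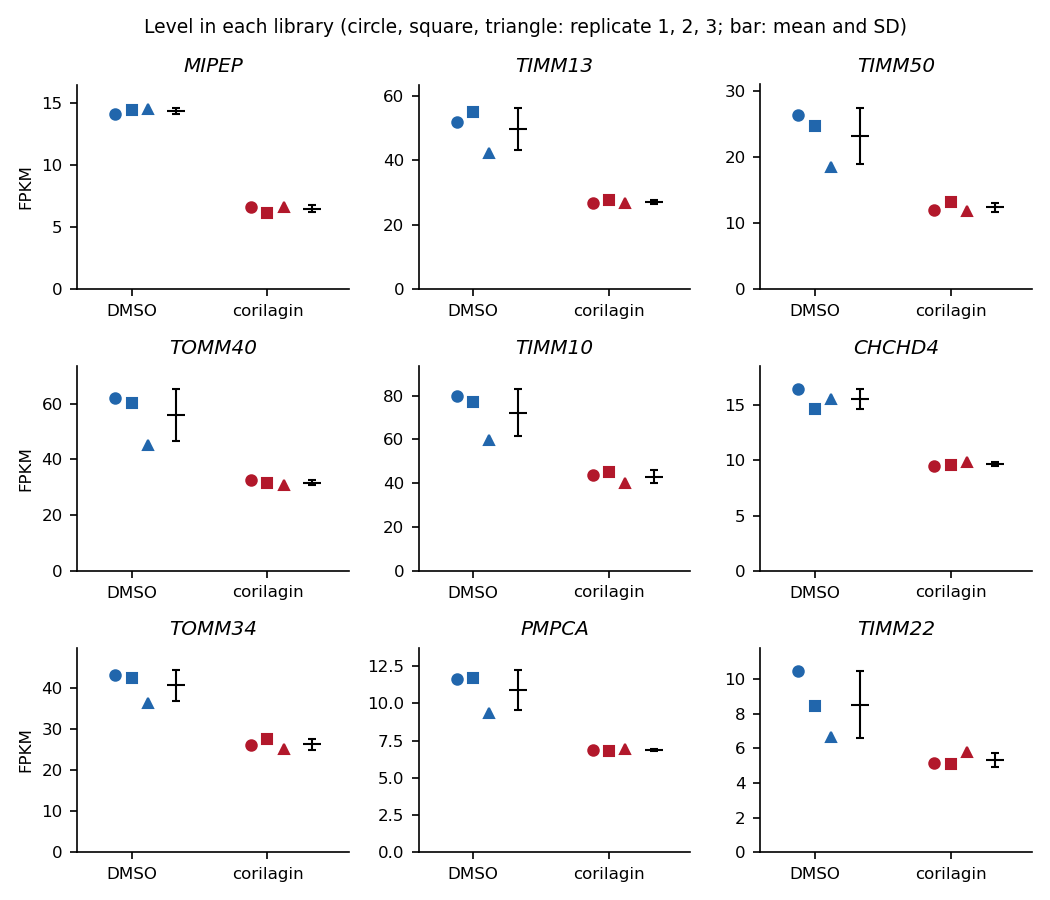
FPKM of 9 import genes in each library, with the mean and SD of 3 libraries per group; circles, squares and triangles are replicates 1, 2 and 3. In the panels other than MIPEP and CHCHD4 the third DMSO library (triangle) is the lowest of its group, and in all 9 it stays above every corilagin library.

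Both tested members of the carrier translocase TIM22 fell. TIMM22 (chr17:997117-1003671, plus strand), its channel, read 10.5, 8.46 and 6.65 FPKM in DMSO and 5.14, 5.09 and 5.80 FPKM after corilagin. The DMSO libraries were spread widely, and the lowest was not far above the highest corilagin library. The log2 difference was -0.57 (SE 0.150, limma adjusted p = 0.0352), or -0.27 against the third DMSO library alone. TIMM29 (chr19:10928733-10933535, plus strand), which links TIM22 to TOM, read 19.4, 18.9 and 16.2 FPKM in DMSO and 13.98, 14.1 and 13.6 FPKM after corilagin, a log2 difference of -0.36 (limma adjusted p = 0.0318) and -0.17 with GC trends removed (adjusted p = 0.0207).

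In the presequence translocase TIM23, 3 of 5 members fell, and all 5 were lower with GC trends removed. TIMM50 (chr19:39480412-39493785, plus strand), the receptor that takes over precursors from TOM, read 26.4, 24.7 and 18.5 FPKM in DMSO and 12.05, 13.2 and 11.9 FPKM after corilagin. Its groups lay far apart, with the third DMSO library again nearest to the corilagin level. The ratio of means was 0.535 and the log2 difference -0.84 (SE 0.137, limma adjusted p = 0.00950), -0.67 with GC trends removed and -0.54 against the third DMSO library alone. TIMM23 (chr10:45972449-46003734, plus strand), the channel-forming subunit, read 59.98, 62.6 and 68.1 FPKM in DMSO and 51.3, 49.4 and 55.2 FPKM after corilagin. In contrast to TIMM50, the third DMSO library was the highest, and the difference was small (-0.29, limma adjusted p = 0.0463). Its near-identical copy TIMM23B may share reads with it, so this value is uncertain.

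The paralogous subunits TIMM17A and TIMM17B occupy the same place in TIM23. TIMM17B (chrX:48893447-48898143, minus strand) read 11.4, 11.9 and 9.13 FPKM in DMSO and 8.37, 7.98 and 7.82 FPKM after corilagin, a log2 difference of -0.38 (limma adjusted p = 0.0460). That difference shrank to -0.19 with GC trends removed (limma adjusted p = 0.0159) and to -0.16 against the third DMSO library alone. TIMM17A read 18.7, 20.8 and 26.6 FPKM in DMSO and 23.6, 22.7 and 23.1 FPKM after corilagin. The corilagin libraries lay inside the DMSO range, with a difference of 0.08 (adjusted p = 0.632), or -0.30 with GC trends removed (adjusted p = 0.00546). The transcripts differ in GC content, at 40.6% for TIMM17A and 60.2% for TIMM17B. TIMM21, which connects TIM23 with respiratory chain assembly, read 5.70 ± 0.291 FPKM (SD, n = 3) after corilagin and 6.86 ± 1.26 (SD, n = 3) in DMSO. Its difference was -0.22 as deposited (adjusted p = 0.198) and -0.65 with GC trends removed (adjusted p = 0.00108).

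The motor that pulls precursors into the matrix had 1 call among 5 members (2 with GC trends removed). So few members cannot be set apart from the 13.5% and 22.9% of all tested genes that were lower in these fits. GRPEL1 (chr4:7058906-7068197, minus strand), a nucleotide exchange factor of mitochondrial HSP70, read 20.02, 20.4 and 19.8 FPKM in DMSO and 16.5, 16.1 and 16.9 FPKM after corilagin. Both groups were tight and apart, with a log2 difference of -0.27 (SE 0.0715, limma adjusted p = 0.0355). Its paralog GRPEL2 lay the other way, at 7.83, 7.82 and 11.9 FPKM in DMSO and 12.5, 12.1 and 12.3 FPKM after corilagin. It is the 1 member higher without overlap, but the third DMSO library almost reached the corilagin level. The log2 difference was 0.41 (SE 0.155, adjusted p = 0.0850), 0.59 without that library and 0.04 against it alone.

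Among the other motor genes, TIMM44, which anchors HSP70 to the channel, read 12.6 ± 0.375 FPKM (SD, n = 3) after corilagin. In DMSO it read 15.9 ± 2.31 (SD, n = 3), a difference of -0.30 (adjusted p = 0.0827). With GC trends removed this was -0.13, and against the third DMSO library alone -0.07. DNAJC19, the J-domain protein of the motor, read 4.75 ± 0.404 FPKM (SD, n = 3) against 5.99 ± 0.379 (SD, n = 3), a difference of -0.28 (adjusted p = 0.0581) that was -0.70 with GC trends removed (adjusted p = 0.00607). It has 9 annotated pseudogene copies, which may take or lend reads. PAM16, the regulator of that J-domain protein, differed by -0.20 (adjusted p = 0.249), or -0.03 with GC trends removed. It shares 522 of its 2383 exon bases with a same-strand gene.

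The processing peptidases held the member with the lowest ratio. MIPEP (chr13:23730189-23889419, minus strand) encodes the intermediate peptidase, which removes a short octapeptide from precursors after the first cut. It read 14.1, 14.5 and 14.5 FPKM in DMSO and 6.66, 6.17 and 6.63 FPKM after corilagin. All 3 DMSO libraries were close together, DMSO replicate 3 included, and no corilagin library came near them. The mean was 6.49 ± 0.273 (SD, n = 3) against 14.4 ± 0.208 (SD, n = 3), a ratio of 0.451. The log2 difference was -1.04 (SE 0.0761, limma adjusted p = 0.00117), -1.15 with GC trends removed, -1.03 without the third DMSO library and -1.05 against it alone. MIPEP also has 3 annotated pseudogene copies.

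The matrix processing peptidase, which makes the first cut, pairs PMPCA with the catalytic subunit PMPCB. PMPCA (chr9:136410570-136423761, plus strand) read 11.6, 11.7 and 9.37 FPKM in DMSO and 6.85, 6.77 and 6.91 FPKM after corilagin, a log2 difference of -0.59 (SE 0.102, limma adjusted p = 0.0112). PMPCB read 13.1 ± 0.263 FPKM (SD, n = 3) after corilagin and 12.1 ± 1.17 (SD, n = 3) in DMSO. It did not pass (0.11, adjusted p = 0.359), and its difference was -0.26 with GC trends removed (adjusted p = 0.0628). TIMMDC1, a relative of TIM17 and TIM23 that works in complex I assembly, read 43.2 ± 0.650 FPKM (SD, n = 3) after corilagin and 45.4 ± 2.57 (SD, n = 3) in DMSO (log2 difference -0.07, adjusted p = 0.480).

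**Figure D3:**
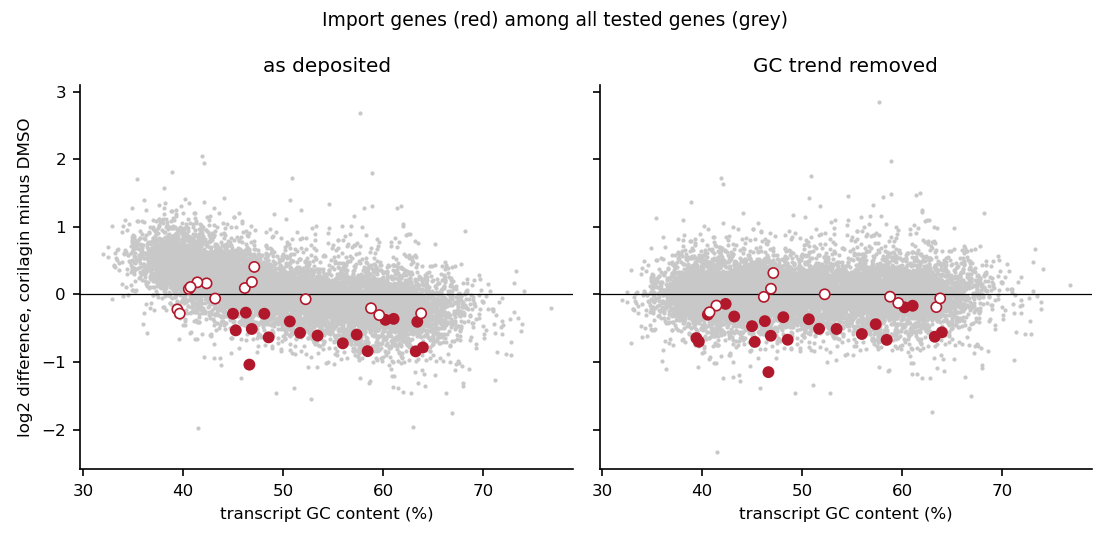
Log2 difference (corilagin minus DMSO) against transcript GC content in percent for all tested genes (grey) and import genes (red, filled where called), as deposited and with each library's GC trend removed. In the left panel the grey points slope downwards, with medians of 0.25 under 50% GC and -0.15 at or above it, while the import genes have medians of -0.22 and -0.40; in the right panel these are -0.34 and -0.37.

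Within a library, pairs of partners or paralogs can be set side by side because FPKM is per length. Ratios of 5 pairs were compared with an exact 2-sided permutation test, for which 3 against 3 libraries cannot go below 0.1, so none could pass. The ratio of GRPEL1 to GRPEL2 was 2.56, 2.61 and 1.66 in DMSO and 1.32, 1.33 and 1.37 after corilagin. The groups did not overlap (log2 difference -0.73, exact p = 0.1, 0.167 adjusted over the 5), and the difference was -0.71 with GC trends removed. PMPCA to PMPCB was 1.06, 0.967 and 0.706 in DMSO and 0.525, 0.506 and 0.537 after corilagin (-0.78, exact p = 0.1, adjusted 0.167), or -0.18 with GC trends removed. The level of this ratio rests on lengths implied by the table, 11323 and 6273 bases, where the GENCODE exons of these genes cover 6590 and 4835.

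The metaxin ratio, MTX1 to MTX2, was 0.427, 0.446 and 0.335 in DMSO and 0.246, 0.246 and 0.262 after corilagin. Its log2 difference of -0.67 (exact p = 0.1, adjusted 0.167) was -0.27 with GC trends removed. TIMM17A to TIMM17B was 1.65, 1.74 and 2.92 in DMSO and 2.81, 2.85 and 2.95 after corilagin, so the third DMSO library sat at the corilagin level. Its difference of 0.50 (exact p = 0.3, adjusted 0.375) turned to -0.11 with GC trends removed. TIMM8A to TIMM8B overlapped between groups, at 0.230, 0.216 and 0.255 in DMSO and 0.267, 0.216 and 0.346 after corilagin (0.22, exact p = 0.4, adjusted 0.4).

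**Figure D4:**
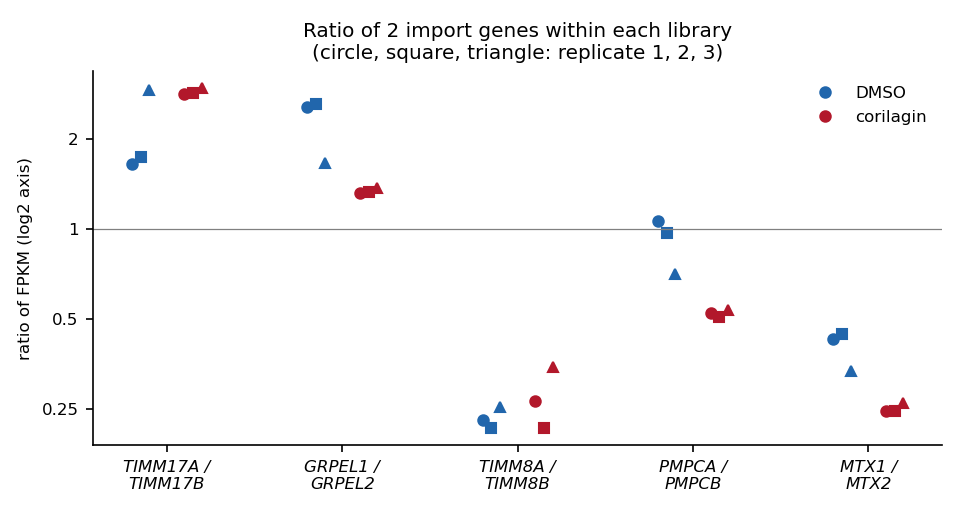
Ratio of the FPKM of 2 import genes within each library on a log2 axis, DMSO in blue and corilagin in red; circles, squares and triangles are replicates 1, 2 and 3. The GRPEL1 to GRPEL2 ratio lies between 1.32 and 1.37 in all corilagin libraries, below the 1.66 to 2.61 of DMSO, while for TIMM17A to TIMM17B the third DMSO library (2.92) lies with corilagin.

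Genes around the import machinery that are not members were counted from 5 further lists. Of 62 listed genes, 58 were tested, 21 fell and 2 rose, with a median log2 difference of -0.17. The counts of each list stand beside 13.5% lower and 11.9% higher over all tested genes. With GC trends removed these shares were 22.9% and 21.0%. Other import factors and the chaperones that deliver precursors fell in 8 of 24 cases, with 0 rises (14 lower with GC trends removed). HSPA8, the cytosolic HSP70 that brings precursors to TOMM70, went from 302 ± 8.25 FPKM (SD, n = 3) in DMSO to 190 ± 7.99 (SD, n = 3) after corilagin (log2 difference -0.66, limma adjusted p = 0.00287). HSP90AB1, a cytosolic HSP90, went from 795 ± 23.5 FPKM (SD, n = 3) to 526 ± 14.7 (SD, n = 3; -0.59, limma adjusted p = 0.00336), and both calls held whichever library was left out. HSPE1, the mitochondrial co-chaperonin, went from 6.06 to 3.51 FPKM (-0.64, limma adjusted p = 0.00863) but shares exons with a read-through gene, so its value is uncertain. Its partner HSPD1 and the motor HSP70 HSPA9 did not pass (83.2 against 102 FPKM, adjusted p = 0.191, and 47.5 against 52.3 FPKM, adjusted p = 0.329).

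Among 16 substrates of the disulfide relay, which carry CX9C motifs, 7 fell and 1 rose (10 lower and 0 higher with GC trends removed). CHCHD10, an intermembrane space protein, went from 21.1 ± 2.21 FPKM (SD, n = 3) to 9.18 ± 0.604 (SD, n = 3), a ratio of 0.435 (log2 difference -1.11, limma adjusted p = 0.00198, held whichever library was left out). NDUFB7, a complex I subunit, had a ratio of 0.623 (limma adjusted p = 0.0160), and COA4, a complex IV assembly factor, one of 0.662 (limma adjusted p = 0.00767). CHCHD7 rose as deposited (0.28, limma adjusted p = 0.0445) and lay at -0.05 with GC trends removed (adjusted p = 0.686).

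The MICOS complex, which shapes cristae and contacts SAM, had 1 fall among 6 tested genes (4 with GC trends removed): MICOS13, from 27.6 to 16.2 FPKM (limma adjusted p = 0.0185). Of 9 proteases that guard mitochondrial proteins, 3 fell and 1 rose (5 lower and 1 higher with GC trends removed). CLPP went from 30.6 to 18.4 FPKM, LONP1 from 58.5 to 39.5 and HTRA2 from 9.05 to 6.25 (limma adjusted p = 0.0225, 0.0206 and 0.0388). OMA1, the stress-activated inner membrane protease, went from 0.902 to 1.44 FPKM (0.36, limma adjusted p = 0.0172), with a difference of 0.03 once GC trends were removed (adjusted p = 0.838). The 1 higher in that fit was YME1L1, an inner membrane protease, at 38.7 ± 1.85 FPKM (SD, n = 3) after corilagin and 26.7 ± 7.05 (SD, n = 3) in DMSO, with a limma adjusted p of 0.0522 as deposited and 0.0136 with GC trends removed (log2 difference 0.55 and 0.25). Of the 3 outer membrane channels inserted by SAM, VDAC1 went from 139 to 103 FPKM and VDAC2 from 80.3 to 66.0 (limma adjusted p = 0.00803 and 0.0423), while VDAC3 stood at 105 against 103 FPKM (adjusted p = 0.794). All 3 channels were lower with GC trends removed, VDAC3 by a log2 difference of -0.18 (limma adjusted p = 0.0121). Apart from HSPA8, HSP90AB1 and CHCHD10, each call named from these lists was lost when some library was left out, with limma adjusted p up to 0.0556 (COA4) to 0.168 (CHCHD7).

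Among the members, 19 of 34 have exons that overlap another annotated gene, 5 on the same strand and 16 on the opposite one, and 13 have pseudogenes named after them. Besides those given above, TOMM22 has 6 copies, and CHCHD4 and TOMM20 have 4 each. Opposite-strand exons cover 458 of the 1500 exon bases of TIMM9 and 718 of the 3278 of MTX1. They also cover 695 of the 2687 of GFER and 798 of the 2730 of TIMMDC1. The fallen members had a median transcript GC content of 52.6% and the tested members that did not pass one of 44.7%, beside 50.1% over all tested genes. The part of GC content, of the third DMSO library and of overlapping genes in the differences was not tested beyond the refits given.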

How the data were processed

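RNA was purified with oligo-dT beads, reverse transcribed with random primers and sequenced as pairs, per the labels' protocols, which do not state that strand was kept. The authors deposited 1 table of FPKM for 20036 genes in 6 libraries. fastp 0.22.0, HISAT2 2.1.0, HTSeq 0.9.1, DESeq 1.38.3 and GRCh38 are named in the submitters' processing notes; settings are not given in the sources used here. FPKM depends on the library total and on the gene lengths used. Whole fragments were recovered from the FPKM steps for 15921 genes above 0. Coordinates, overlaps and GC content came from GENCODE 29 (GRCh38).

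limma 3.58.1 in R 4.3.3 (lmFit, eBayes with trend, 2-sided) was run on log2(FPKM + 1) for genes averaging 1 FPKM or more, without covariates, at a Benjamini-Hochberg threshold of 0.05. The log2 scale with this pseudocount understates the change of low genes. GC trends were removed per library with a natural spline (5 degrees of freedom). The fit was checked on simulated data with the same low dispersion for every gene. No GC trend and no library set apart was simulated, so the check does not cover these features of the data. The alternatives were other pseudocounts, filters, scalings, GC and length trends, a replicate block, limma-voom on recovered fragments, and libraries left out. All members were accounted for, with values in every library for the fallen members without overlap and the 3 most abundant members; of the other lists, up to 3 rises and 3 falls with the largest change were named, and other named genes were chosen after their values were seen. The members and lists were chosen with earlier results of these data known. The result of 1 further marker list is not reported here.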

Additional observations from a re-analysis of the deposited data

How the results depend on the processing

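The 13 alternatives other than leaving out 1 library called 13 to 23 members lower, within 1.5 times of 18. They called 0 members higher except the fit with GC and length trends removed and the replicate block with GC trends removed, with 1 each (GRPEL2). Across these alternatives, 1010 to 2283 of all genes were called lower. The 1010 were of 6570 genes, at a mean of at least 5 FPKM. The 2283 were of 9859, with GC and length trends removed. With no filter, 1026 of 15921 genes were lower. Median-of-ratios scaling gave 1518 of 9868 and quantile normalization 1498 of 9868. With 1 library left out, the members called ranged from 3 to 21 lower and from 0 to 6 higher. All genes then ranged from 176 to 3597 lower and from 131 to 4030 higher, and the other listed genes from 3 to 31 lower and from 0 to 12 higher.

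Over all genes, GC trends removed gave 2070 higher and 2260 lower, GC and length trends removed 2055 and 2283, DMSO replicate 3 alone 1916 higher, and a mean of at least 5 FPKM 713 higher. The other listed genes called lower were 36 with GC trends removed, 36 with GC and length trends removed and 32 against DMSO replicate 3 alone. Of them 1 was called higher with GC trends removed, with GC and length trends removed, at a mean of at least 5 FPKM, with median-of-ratios scaling, with no filter and with quantile normalization.

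Replicate numbers shared by the groups were not shown to pair the libraries: deviations of same-numbered libraries correlated at 0.28, 0.08 and 0.34. Each corilagin library correlated best with the DMSO library of its own number, replicate 1 by a narrow margin. DMSO replicate 2 correlated better with corilagin replicate 1 (0.279) than with corilagin replicate 2 (0.079). The replicate block called 15 members lower and 0 higher, without GRPEL1, TIMM23 and TIMM8A, and 1330 genes lower and 1547 higher. The block with GC trends removed called 22 members lower, 2041 genes higher and 2175 lower, and 37 other listed genes lower.

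Differences changed direction as follows, with GC and length trends removed, with GC trends removed and with the replicate block on GC-corrected values, in this order: TOMM7 -0.014, -0.035 and -0.035, TOMM20 -0.19, -0.16 and -0.16, TOMM70 -0.17, -0.14 and -0.14, TIMM17A -0.28, -0.30 and -0.30, PMPCB -0.26 each time, CHCHD7 -0.032, -0.054 and -0.054, and TIMMDC1 0.019, 0.0030 and 0.0030. Against DMSO replicate 3 alone TOMM20 was -0.044, TOMM70 -0.16, TIMM17A -0.20, PMPCB -0.018 and GFER 0.10. TIMM9 was 0.049 and TIMMDC1 0.048 after rescaling to equal sums. With 1 library left out, TIMM9 ranged from -0.135 (without DMSO replicate 1) to 0.065 (without DMSO replicate 3), and TIMM17A from -0.024 (without DMSO replicate 1) to 0.22 (without DMSO replicate 3).

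For the ratios, the alternatives were chosen after seeing the data. TIMM17A to TIMM17B turned from 0.50 to -0.11 with GC trends removed. Leaving out 1 library gave 0.349 to 0.762 for it, -0.945 to -0.620 for GRPEL1 to GRPEL2, 0.043 to 0.381 for TIMM8A to TIMM8B, -0.957 to -0.661 for PMPCA to PMPCB and -0.795 to -0.590 for MTX1 to MTX2. The cause of these changes was not tested. Tested members had at least 118 fragments in each library.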
